A study of Mus musculus with 2 samples.

Results

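The Runx family genes were taken as Runx1, Runx2, Runx3 and Cbfb, and their members were the regions of the Etv4 and Etv5 ChIP-seq lists that lay inside one of these genes or within 50 kb of it (gene models of GENCODE vM21, mouse genome build mm10). The rule found 48 of the 21933 regions, of which 34 came from the 13636 Etv4 regions and 14 from the 8297 Etv5 regions. The genes were chosen by name, not by their number of regions, though with earlier results of these data known. Chromatin immunoprecipitation followed by sequencing (ChIP-seq) recovers the DNA that a protein is bound to, and each deposited list holds the stretches where reads piled up.

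Both libraries came from EpRas cells, a mouse mammary gland epithelial line made from EpH4 cells by transformation with H-Ras. The medium held 4% serum, and TGF-β3 was added at 1 ng/ml for 1.5 h before the cells were fixed, so neither list had an untreated or untransformed counterpart here. Etv4, an ETS transcription factor of the PEA3 group, was precipitated with a rabbit polyclonal antibody and its relative Etv5 with a mouse monoclonal antibody. There was 1 library for each antibody, no input library and no replicate, and the lists gave no read counts, so depth and occupancy were unknown and no difference could be tested.

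RUNX proteins bind DNA through a conserved Runt domain, and they do so tightly only as heterodimers with CBFβ, the product of Cbfb, which does not itself touch DNA. Each Runx gene of mammals has a distal promoter, P1, and a proximal promoter, P2, whose transcripts encode proteins with different N-termini. Runx1 is known for blood formation and is also expressed in mammary epithelium, Runx2 for bone formation and breast cancer metastasis, and Runx3 for T-cell and neuronal development. RUNX proteins bind Smads, the transcription factors of TGF-β signalling, and can bind DNA next to ETS proteins and to AP-1, the Fos and Jun dimers.

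The promoter sequences are shown first, since the distance to each promoter was measured for every region. A promoter was placed at the outermost annotated start of the coding transcripts of its kind, and P1 and P2 were told apart by the start codon they lead to. The 250 bases before the Runx1 P2 start lay wholly inside an Etv4 region, and 180 bases of the Cbfb promoter did as well. Both are given 5′ to 3′ along the gene (mm10, RefSeq assembly GRCm38.p6), with every GGAA core of ETS binding sites, read on either strand, in capitals.
Runx1 P2, chr16:92697329-92697578, minus strand: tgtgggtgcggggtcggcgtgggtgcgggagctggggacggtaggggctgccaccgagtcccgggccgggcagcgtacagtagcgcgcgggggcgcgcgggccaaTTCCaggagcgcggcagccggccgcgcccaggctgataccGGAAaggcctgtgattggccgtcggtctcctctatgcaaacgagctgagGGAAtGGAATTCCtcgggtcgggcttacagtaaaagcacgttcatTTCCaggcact
Cbfb promoter, chr8:105170424-105170603, plus strand: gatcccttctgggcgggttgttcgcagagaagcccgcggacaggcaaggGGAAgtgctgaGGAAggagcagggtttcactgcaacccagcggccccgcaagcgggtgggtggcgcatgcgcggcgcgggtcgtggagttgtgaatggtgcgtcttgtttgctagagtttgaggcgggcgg

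The Runx1 P2 stretch held 6 GGAA cores and the Cbfb stretch held 2. The core is short and common, since 96.0% of 32851 RefSeq promoter windows of 300 bp had at least 1, with a median of 3. Neither stretch had the longer ETS pattern CAGGAAGT or CCGGAAGT, which 7.07% of promoter windows held.

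The P1 promoters shared another feature that the rule did not use. Each of the 3 Runx genes had, near its P1 start, a pair of TGTGGTT matches (the RUNX pattern) on the strand opposite to the gene, with 8 bases from the start of one to the start of the other. Here 25 bases around each pair are given along the gene, with the matches in capitals as they read on that strand.
Runx1 P1, chr16:92826028-92826052, minus strand: taaacAACCACAgAACCACAagttg
Runx2 P1, chr17:44814586-44814610, minus strand: caaacAACCACAgAACCACAagtgc
Runx3 P1, chr4:135120505-135120529, plus strand: ccctcAACCACAgAACCACAaggcc
Such a pair, searched as 2 copies of TGTGGTT or TGTGGTC on the same strand with this spacing, was found in 6 of the 32851 promoter windows (0.0183%), and 3 of those 6 were the P1 windows of these genes. It was looked for after the windows had been read. The window of Gm16225, which lies against the Runx3 start, held the same Runx3 pair. Relative to the RefSeq start, the pairs began at base 27 in Runx1, at base 22 in Runx2 and at base -135, upstream, in Runx3. The P2 windows of Runx1 and Runx3 and the Cbfb window had none, and Runx2 P2 was not searched for the pair.

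No pair was covered by a region of either list. The nearest Etv4 region was 89 bp away in Runx1, 76.5 kb in Runx2 and 70.8 kb in Runx3. The nearest Etv5 region was 1.87 kb, 37.6 kb and 24.4 kb away in the same order.

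Runx1 had the most regions of the 4 genes. It lies on the minus strand of chromosome 16 (92601466 to 92826149, 225 kb) and had 19 Etv4 and 6 Etv5 regions. Runx2, on the minus strand of chromosome 17 (44495987 to 44814797, 319 kb), had 9 Etv4 and 4 Etv5 regions although it is longer. Cbfb, on the plus strand of chromosome 8 (105170674 to 105217989, 47.3 kb), had 5 and 2. Runx3, on the plus strand of chromosome 4 (135120652 to 135177990, 57.3 kb), had 1 and 2, and none of them lay inside the gene.

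**Figure D1:**
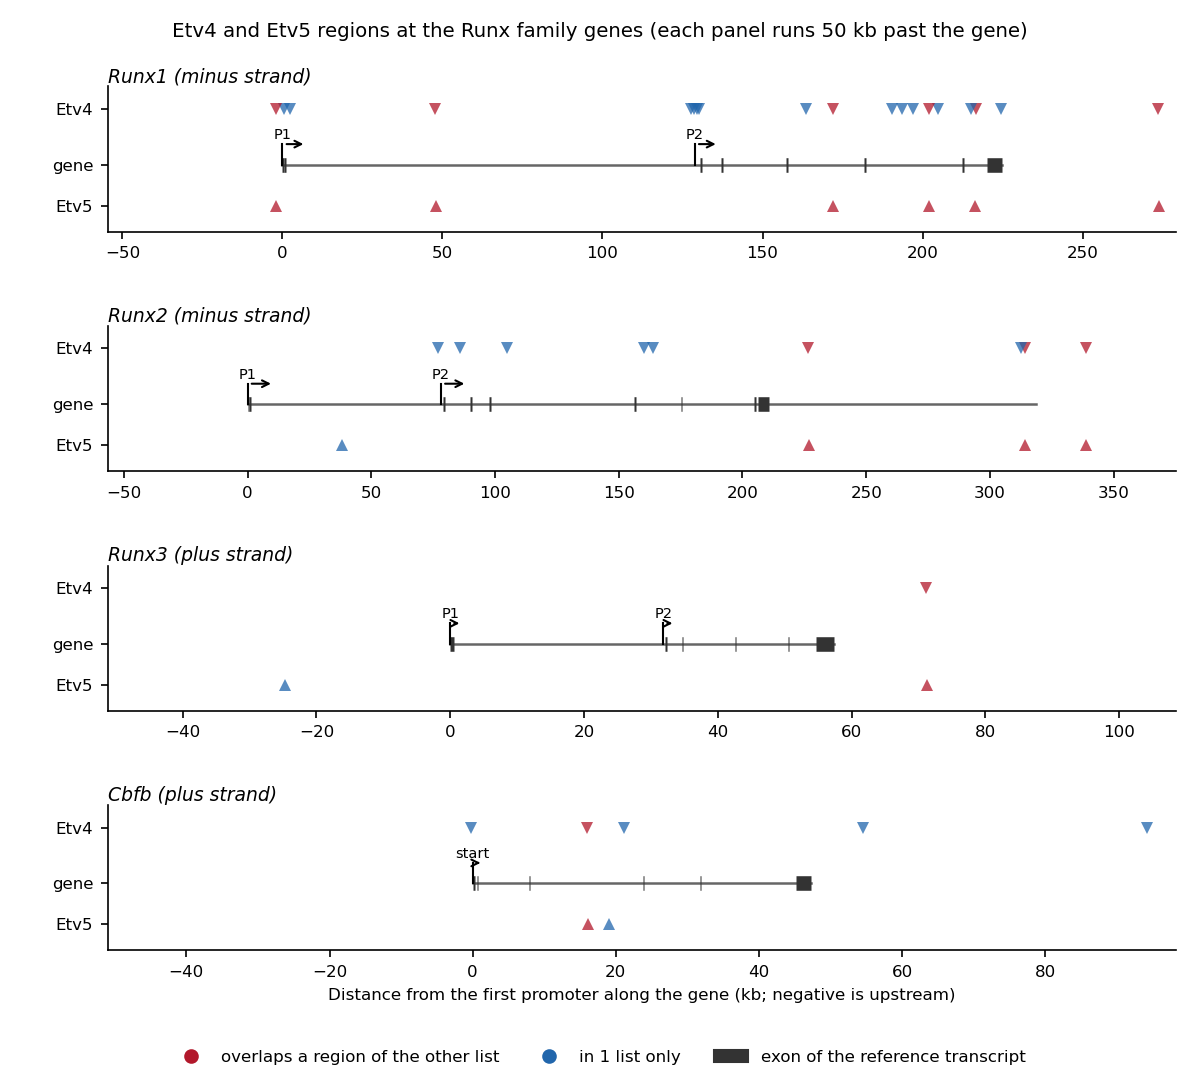
Positions of the 34 Etv4 regions (triangles above) and 14 Etv5 regions (triangles below) along the 4 genes, in kb from the first promoter, with the gene from left to right in its own direction. Red marks regions that overlapped a region of the other list and blue those in 1 list only; dark blocks are exons of 1 reference transcript. All 6 Etv5 regions of Runx1 are red, and the body of Runx3 is empty.

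Having a region at all was not particular to these genes. All 4 had at least 1 Etv4 region, as did 53.4% of 21938 protein-coding genes, and all 4 had at least 1 Etv5 region, as did 42.7%. All 4 had regions of both lists, as did 36.4%. The genes differed in number. Runx1 ranked 11th of 21938 genes by its 19 Etv4 regions, a count that 0.0547% of genes reached, and 1.43% reached its 6 Etv5 regions. The 9 and 4 regions of Runx2 were reached by 1.79% and 4.82% of genes, and the 5 and 2 regions of Cbfb by 8.98% and 19.6%. The single Etv4 region of Runx3 was reached by 53.4% and its 2 Etv5 regions by 19.6%. Neighbouring genes share regions in such counts, so genes are not independent.

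**Figure D2:**
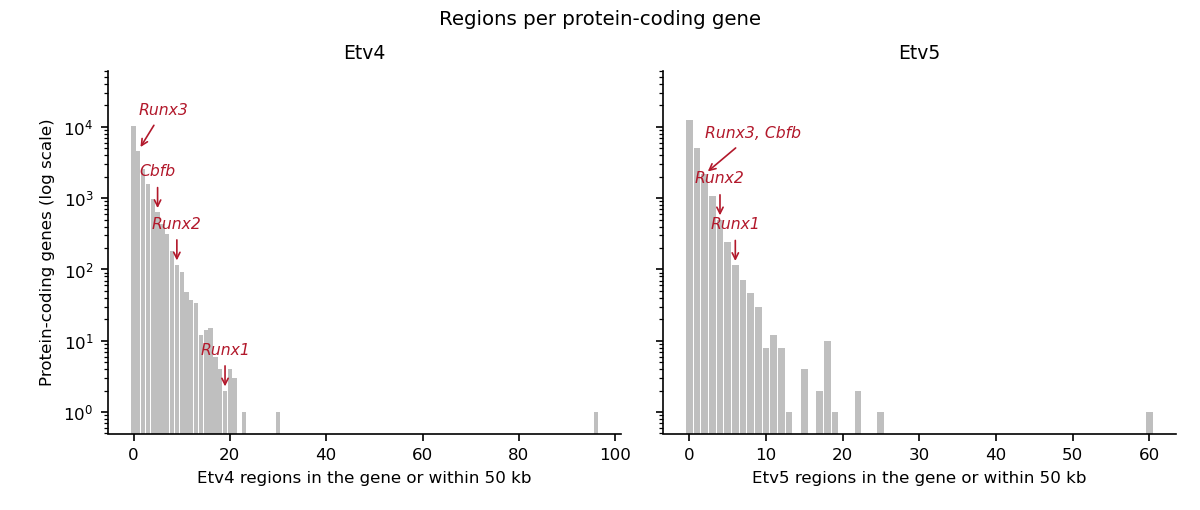
Number of protein-coding genes (log scale) by the number of Etv4 regions (left) and Etv5 regions (right) in the gene or within 50 kb, with the 4 genes marked. Runx1 stands at 19 Etv4 regions, in the thin upper tail, and at 6 Etv5 regions, and Runx3 stands at 1 and 2.

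A long gene has more room for regions, so the counts were also read against length. Runx1 had 5.85 Etv4 regions per 100 kb of gene and flanks, Cbfb 3.39, Runx2 2.15 and Runx3 0.636, beside a median of 0.521 over all protein-coding genes. These densities were reached by 3.08%, 9.80%, 17.1% and 47.8% of genes in the same order, so Runx1 and Runx2 stood out less by density than by count. Among the 1008 genes whose span was within 1.5-fold of that of Runx1, the median count was 1.00 and only Runx1 and 1 other gene had 19 or more. For its 6 Etv5 regions 33 of the 1008 genes came as high. Of 665 genes of the length of Runx2, 27 had 9 or more Etv4 regions and 62 had 4 or more Etv5 regions. Over the next stretch of DNA, from 50 kb to 1 Mb on either side, the Etv4 density was 1.05 per 100 kb around Runx1, 1.42 around Runx2, 1.16 around Runx3 and 1.42 around Cbfb. For Etv4, the genes thus differed more than their surroundings. For Etv5 the genes lay closer together, at 1.85 per 100 kb for Runx1, 1.36 for Cbfb, 1.27 for Runx3 and 0.955 for Runx2. The median over all protein-coding genes was 0, and these densities were reached by 10.6%, 15.9%, 16.5% and 21.3% of genes in that order. The surroundings of Runx1, Cbfb, Runx3 and Runx2 had 0.579, 0.368, 0.632 and 0.684. Without an input library, DNA copy number and the ease of shearing cannot be told apart from binding.

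The Etv4 list supplied 70.8% of the 48 regions (95% exact Clopper-Pearson interval 55.9 to 83.0), beside 62.2% of all regions. In Runx1 the share was 76.0% (54.9 to 90.6). These and all later intervals cover counting error only and treat regions as independent. The whole-series share lay inside both intervals, so no excess of Etv4 was detectable with this few regions.

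At the promoters, the genes fell into 3 kinds. Runx1 had Etv4 regions at both promoters, Runx2 and Cbfb had 1 at 1 promoter, and Runx3 had none at either. An Etv4 region came within 2 kb of a coding transcript's start in 3 of the 4 genes, as in 17.2% of 21853 protein-coding genes. An Etv5 region did so in Runx1 alone of the 4, as in 9.99% of those genes.

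Transcripts from Runx1 P2 encode the protein form with the shorter N-terminus. The P2 start, at 92697328, lay within an Etv4 region of 592 bp (chr16:92697269-92697860) whose midpoint was at -0.236 kb, a negative distance being upstream. A 2nd region (chr16:92698309-92698810) was centred at -1.23 kb. The other two lay over the long first exon of the P2 transcript, at chr16:92696196-92697120 and chr16:92695551-92696148, with midpoints at 0.671 and 1.48 kb. These 4 Etv4 regions stood side by side, and having 4 or more within 2 kb of 1 start was seen in 13 of 21853 protein-coding genes (0.0595%), a limit set after the Runx1 count was seen. The count depends on how finely regions are divided, since the 3 lower-coordinate regions were only 47 and 148 bp apart. With regions joined across gaps of up to 300 bp, 2 remained at P2. The most at any start of Runx1 was then 3, at a coding start of P1 (92825778), not at P2. At least 3 were found in 29 of the 21853 genes (0.133%), and the share of genes with 2 or more was not counted. No Etv5 region came near P2, the closest being 42.8 kb downstream. The 4 regions had GC contents of 69.3%, 62.5%, 44.8% and 56.4% in the order given, and ranked between 41.8% and 71.0% of the Etv4 list by region number.

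Runx1 P1 lies 129 kb upstream of P2 and is the promoter known from definitive blood cells. Its outermost start, at 92826149, was not covered, but the inner of its 2 annotated coding starts, at 92825778, lay inside an Etv4 region. Etv4 regions lay on both sides of the outermost start, at chr16:92825491-92825944, the region over the inner start, 0.205 kb from the outermost, at chr16:92823328-92823954, centred 2.51 kb downstream, and at chr16:92827582-92828742, whose near edge was 1.43 kb upstream. The last one held the only Etv5 region at a promoter of the 4 genes (chr16:92827916-92828372, 1.77 kb from the start). The midpoints of this pair were 18 bp apart, at -2.01 and -1.99 kb, so the pair was split by a limit of 2 kb when regions were assigned to transcript starts.

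**Figure D3:**
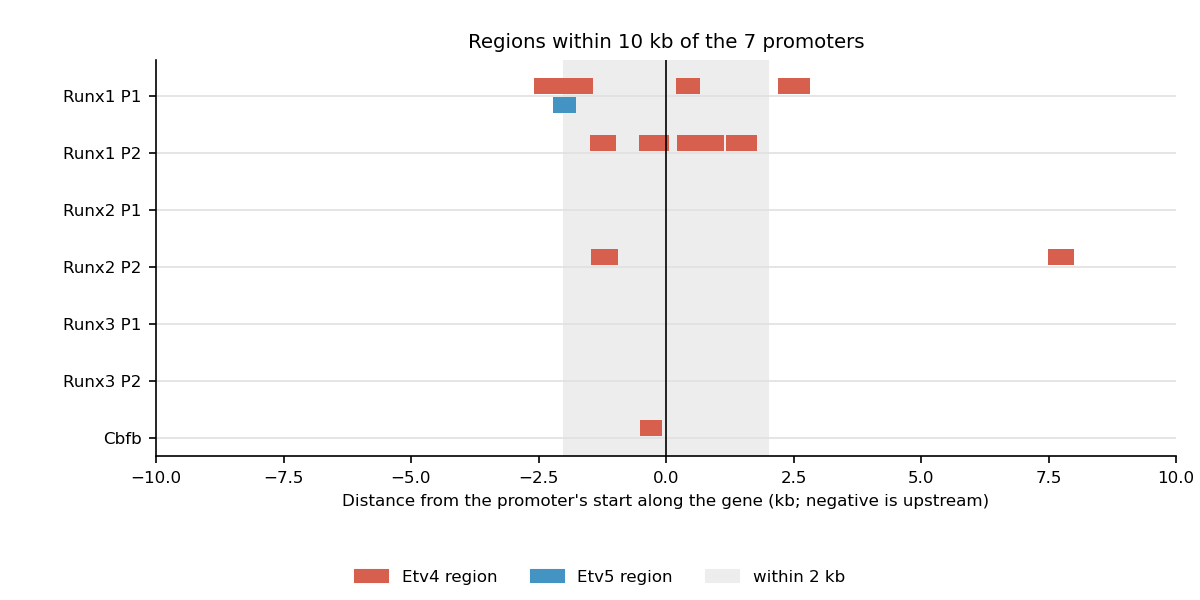
Regions within 10 kb of the 7 promoters, drawn to scale in kb from each start along the gene, with Etv4 in red, Etv5 in blue and the 2 kb on either side in grey. Runx1 P2 has 4 Etv4 regions and no Etv5 region, the 1 Etv5 region is at Runx1 P1, and the rows of Runx2 P1 and both Runx3 promoters are empty.

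At Runx2, a region lay at P2 and none at P1. P1, at 44814797, the promoter known from osteoblasts, had no Etv4 region within 76.7 kb and no Etv5 region within 37.8 kb. P2, at 44736648, had an Etv4 region 0.947 kb upstream (chr17:44737595-44738116, 522 bp) and another 7.74 kb downstream by midpoint (chr17:44728646-44729163). The one Etv5 region between the promoters (chr17:44776530-44777017) was centred at -0.379 kb from an annotated start of Supt3, a subunit gene of the SAGA coactivator that overlaps this end of Runx2. It did not overlap an Etv4 region.

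The Cbfb promoter had an Etv4 region of 443 bp (chr8:105170161-105170603) that ended 71 bp before the start, and its nearest Etv5 region was 15.8 kb away. At Runx3, the nearest Etv4 region was 70.7 kb from P1 and 38.9 kb from P2, and the nearest Etv5 regions were 24.6 and 39.1 kb away. Runx3 was therefore the one gene of the family with no region of either list at a promoter or in an intron.

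The lists met at 11 places. Joined into loci, the 48 regions made 37, with 11 in both lists, 23 in Etv4 only and 3 in Etv5 only. The median length was 912 bp for loci in both lists, 548 bp for Etv4 only and 414 bp for Etv5 only. Joining itself lengthens a shared locus. Overlap meant at least 1 bp in common.

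By list, 11 of 34 Etv4 regions overlapped an Etv5 region (32.4%, 17.4 to 50.5), beside 37.8% of the whole Etv4 list. In turn 11 of 14 Etv5 regions overlapped an Etv4 region (78.6%, 49.2 to 95.3), beside 63.2% of the whole Etv5 list. Both shares included the whole-list value in their intervals. At Runx1 all 6 Etv5 regions lay on an Etv4 region, against 6 of the 19 Etv4 regions on an Etv5 region. At Runx2 the counts were 3 of 4 and 3 of 9, at Cbfb 1 of 2 and 1 of 5, and at Runx3 1 of 2 and 1 of 1.

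The 6 shared loci of Runx1 ran from one end of the gene to the other. Besides the one upstream of P1, a locus lay between the promoters at chr16:92777794-92778961, in the long intron 2 of the P1 transcript and 79.0 and 44.4 kb from the Etv4 regions on its sides. This intron is known to hold a blood enhancer of the gene. Introns 5, 6 and 7 of the P1 transcript held 1 each, at chr16:92653648-92654551, chr16:92623552-92624463 and chr16:92609093-92610114. The last lay 47.7 kb beyond the gene end, at chr16:92551477-92553803, where it covered the start of the gene model Gm49722. At 2327 bp its Etv4 region was the longest of the 34, and its Etv5 region had the lowest number of the 14 (608, 7.33% of its list).

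The Etv4 regions of Runx1 that had no Etv5 partner lay mostly in its downstream part. With and without a partner, there were 12 Etv4 midpoints in 95.9 kb from P2 to the gene end (12.5 per 100 kb). Between the promoters there were 5 in 129 kb (3.88 per 100 kb). For Etv5 the counts were 3 and 1. A region of 2145 bp at chr16:92620304-92622448, in intron 6, had the lowest number of all Etv4 members (454, 3.33% of the list) and still no Etv5 region. Besides those at P2 given above, the others without a partner in that part were chr16:92601028-92602117 over the last exon, chr16:92610873-92611183 in intron 7, chr16:92628863-92629200, chr16:92632362-92632701 and chr16:92635600-92636080 in intron 6, and chr16:92662358-92662937 in intron 5. Apart from the first, these were short, from 311 to 580 bp.

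At Runx2, all 3 shared loci lay past the 3′ end of its protein-coding transcripts. They were chr17:44587754-44588503 and chr17:44500031-44501157, within an intron of a transcript annotated as subject to nonsense-mediated decay that lengthens the gene, and chr17:44475725-44476583, 19.4 kb beyond the gene end. The 2nd of them had the lowest region numbers at this gene, with 606 among the Etv4 regions and 935 among those of Etv5 (4.44% and 11.3%). An Etv4 region without partner stood beside it (chr17:44501849-44502758), and an 85.2 kb gap followed. The other Etv4 regions were chr17:44650486-44651033 and chr17:44654251-44655015 in intron 6 of the P1 transcript, and chr17:44709596-44710435 in intron 5, centred at -0.207 kb from the start of the antisense gene Runx2os2.

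Runx3 had a shared locus 13.4 kb past its end (chr4:135191363-135192104 for Etv4, chr4:135191555-135192146 for Etv5) and a short Etv5 region of 341 bp upstream (chr4:135095720-135096060). In Cbfb, intron 3 held all 4 regions inside the gene. They were a shared pair (chr8:105186440-105186869 in Etv4, chr8:105186519-105187116 in Etv5), an Etv5 region (chr8:105189523-105189936) and an Etv4 region (chr8:105191577-105191965). Both Etv4 regions past the gene end were near starts of other genes. One covered the start of D230025D16Rik (chr8:105224744-105225549), and the other (chr8:105264741-105265049) was centred 0.212 kb past the nearest start of Fbxl8, so they may count for those genes as much as for Cbfb.

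Region number, the rank-like integer that each list gives its regions, followed length closely. Spearman's rho across the 34 Etv4 members was -0.899 and across the 14 Etv5 members -0.886, and across all regions -0.900 and -0.869. This is across regions of 1 library each, with no test. What orders the number is not stated in the sources used here, but a low number went with a long region.

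Overlap between the lists moved with the number as well. Of the 34 Etv4 members, 13 were in the first 25% of the list by number, and 9 of these overlapped an Etv5 region. In the later bins of 25% each, 1 of 4, 1 of 12 and 0 of 5 did. Over the whole Etv4 list the shares in these bins were 69.4%, 40.0%, 25.5% and 16.2%. The median number was 1783 for the 11 overlapping Etv4 members and 7593 for the other 23. For Etv5 it was 2546 for the 11 that overlapped and 5106 for the 3 that did not. The 4 Etv4 regions at Runx1 P2, which had no Etv5 partner, were in the middle 2 bins.

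**Figure D4:**
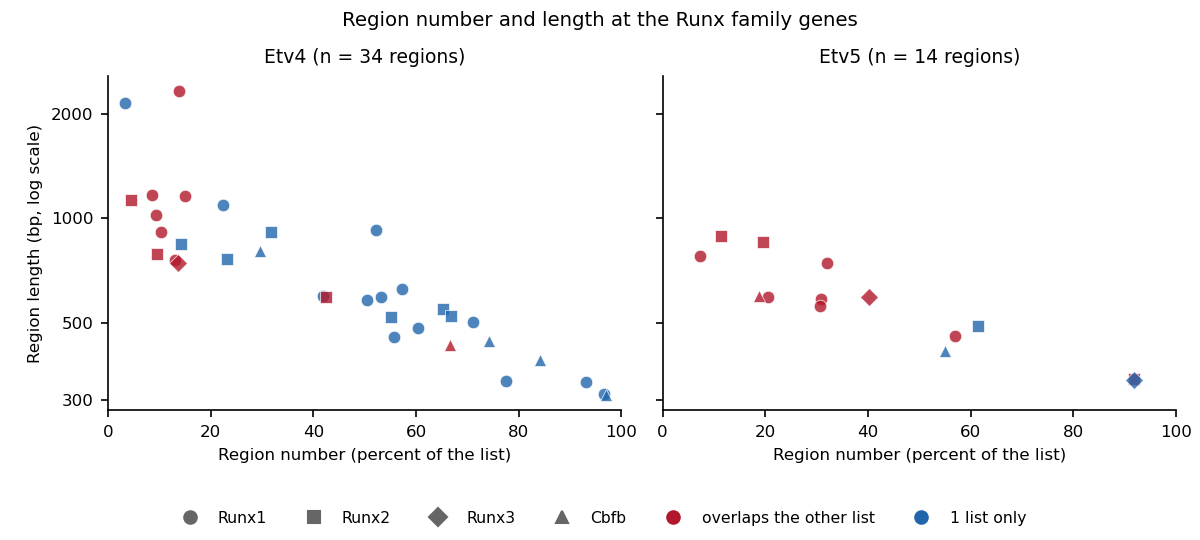
Length of each region (bp, log scale) against its region number as a percent of its list, for 34 Etv4 (left) and 14 Etv5 regions (right), with 1 symbol for each gene and red for regions that overlapped the other list. Red points gather at low numbers and long lengths, with 9 of the 11 red Etv4 points in the first 25%.

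Transcript starts took a like part of these regions and of the whole lists. The midpoint lay within 2 kb of an annotated start for 12 of 34 Etv4 regions (35.3%, 19.7 to 53.5), beside 36.5% of the list, and for 3 of 14 Etv5 regions (21.4%, 4.66 to 50.8), beside 33.1%. Among the Etv4 regions near a start, 11 were of the 23 without an Etv5 partner (47.8%, 26.8 to 69.4) and 1 was of the 11 with one (9.09%, 0.230 to 41.3). Over the whole Etv4 list the shares were 40.9% without a partner and 29.1% with one, both inside these intervals. Lengths were also ordinary, with a median of 612 bp for Etv4 (list 589 bp) and 588 bp for Etv5 (list 532 bp). The median GC content was 49.2% and 49.8%, beside 49.2% and 48.5%. At most 9.14% of the 36-base sequences of a member region occurred more than once in the genome.

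Sequence patterns were counted in the 500 bp around each midpoint, on both strands. The ETS pattern (CAGGAAGT or CCGGAAGT) was found in 2 of 34 Etv4 regions (5.88%, 0.720 to 19.7), beside 10.2% of the list. It was found in 0 of 14 Etv5 regions, which allows a share of up to 23.2%, beside 7.93%. The AP-1 pattern (TGACTCA or TGAGTCA, which are each other's reverse complement, so that each match counts once) was in 13 of 34 and 6 of 14 (38.2% and 42.9%), beside 37.4% and 35.8%. The RUNX pattern (TGTGGTT or TGTGGTC) was in 7 of 34 and 5 of 14 (20.6% and 35.7%), beside 24.7% and 23.9%. Every whole-list share was inside the members' interval, so these genes' regions were not distinguishable from the rest of the lists by these letters. A match describes the letters only, and a missing match says nothing about the factor.

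**Figure D5:**
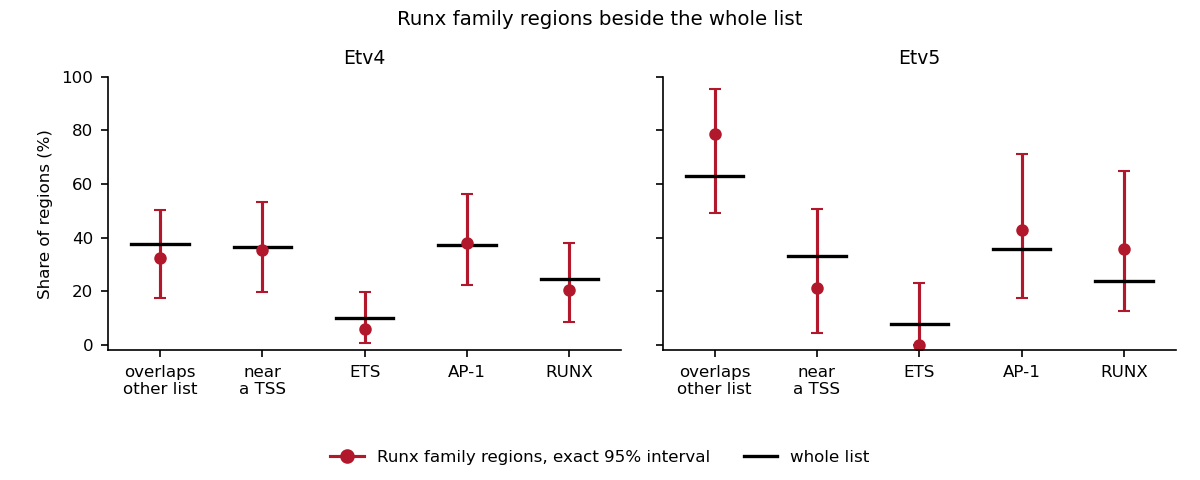
Share of the Runx family regions (red, with exact 95% interval) with each feature, beside the share of the whole list (black line), for Etv4 (left, n = 34) and Etv5 (right, n = 14). Every black line lies inside the red interval.

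Counted over the whole joined loci, 16 of 37 held an AP-1 match, 10 a RUNX match and 2 an ETS match, and 5 held both AP-1 and RUNX. Those 5 were at Runx1, which had 19 of the 37 loci. Over the whole length of a region, 1769 of 13630 Etv4 and 883 of 8289 Etv5 regions held both. Below are the stretches with 20 bases on either side of the matches (capitals), along the gene. The first shows the AP-1 and RUNX matches in the shared locus of intron 5, and the following ones show RUNX matches in the shared loci of intron 6 and between the promoters. Then come a pair of AP-1 matches in an Etv4 region of intron 2 of the P1 transcript, and the only ETS match in the regions of the gene. That intron 2 region was centred 2.51 kb downstream of the P1 start. The words "inside P1" in its label therefore mean downstream of P1, not in the promoter.
Runx1 intron 5, chr16:92653993-92654075, minus strand: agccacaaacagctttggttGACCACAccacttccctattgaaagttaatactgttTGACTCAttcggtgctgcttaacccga
Runx1 intron 6, chr16:92623978-92624024, minus strand: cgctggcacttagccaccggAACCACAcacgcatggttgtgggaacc
Runx1 between promoters, chr16:92778100-92778146, minus strand: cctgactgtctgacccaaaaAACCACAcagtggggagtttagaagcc
Runx1 inside P1, chr16:92823782-92823847, minus strand: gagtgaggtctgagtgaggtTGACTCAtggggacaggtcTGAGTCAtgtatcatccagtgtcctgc
Runx1 intron 6 ETS, chr16:92632560-92632607, minus strand: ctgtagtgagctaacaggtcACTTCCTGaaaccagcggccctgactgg

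In the intron 5 locus, 29 bases separated the AP-1 match from the RUNX match. An AP-1 and a RUNX match within 50 bp of each other were found in 2.92% of all Etv4 regions and 2.67% of all Etv5 regions. The pair of AP-1 matches in intron 2, downstream of P1, was 12 bases apart, and 9.06% of Etv4 regions held 2 or more. The Etv4 region with the ETS match was short (340 bp) and late in the list (number 10564, 77.5%).

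In the far 3′ part of Runx2 and beyond its end, the 4 loci held 4, 2, 1 and 0 AP-1 matches. The Etv4 region at chr17:44501849-44502758 had the 4, a count that 0.103% of Etv4 regions reached and that was taken as a limit after it was seen. Its shared neighbour had 2, 16 bases apart. The stretches below show that pair, the closest pair of the other region (3 bases apart), the RUNX match of the Etv5 region at chr17:44587754-44588096, and the ETS and AP-1 matches of the Etv4 region in intron 6. Apart from the Runx1 match, this was the only ETS match in the regions of the 4 genes.
Runx2 3′ part, shared, chr17:44500641-44500710, minus strand: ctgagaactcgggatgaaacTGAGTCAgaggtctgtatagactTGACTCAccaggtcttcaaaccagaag
Runx2 3′ part, Etv4, chr17:44502321-44502377, minus strand: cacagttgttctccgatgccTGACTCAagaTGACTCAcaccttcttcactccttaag
Runx2 3′ part, RUNX, chr17:44587891-44587937, minus strand: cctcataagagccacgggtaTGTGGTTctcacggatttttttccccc
Runx2 intron 6, chr17:44654427-44654684, minus strand: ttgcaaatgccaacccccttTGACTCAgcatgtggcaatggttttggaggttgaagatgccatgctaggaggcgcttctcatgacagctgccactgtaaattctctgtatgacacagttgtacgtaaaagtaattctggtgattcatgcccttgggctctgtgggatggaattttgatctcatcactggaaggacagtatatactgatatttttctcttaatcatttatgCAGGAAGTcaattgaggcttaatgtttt

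Runx3 and Cbfb held few matches. The shared locus past the Runx3 end had 1 AP-1 match, inside both regions, and the Etv4 region in intron 3 of Cbfb had 2 RUNX matches, the first of which is shown. The Etv4 region next to the Fbxl8 start had 1 more, and no locus of Cbfb held an AP-1 match.
Runx3 downstream, chr4:135191953-135191999, plus strand: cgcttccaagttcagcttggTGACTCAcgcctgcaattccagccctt
Cbfb intron 3, chr8:105191779-105191825, plus strand: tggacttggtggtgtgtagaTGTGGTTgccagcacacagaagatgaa

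Other genes of RUNX function were counted by the same rule, in 3 groups, to be read beside the 53.4% of all protein-coding genes with an Etv4 region, the 42.7% with an Etv5 region and the 36.4% with both. Of 14 cofactors, among them the Groucho co-repressors and the histone acetyltransferases that RUNX proteins recruit, 9 had an Etv4 region, 9 an Etv5 region and 7 both. The most Etv4 regions were at the Groucho genes Tle1, with 4 Etv4 and 0 Etv5 regions, and Tle3, with 4 and 1, whereas Tle2 had the most Etv5 regions (1 Etv4, 3 Etv5) and Tle4 had 0 in both lists. Hipk2, a kinase that binds RUNX proteins, had 3 and 2. Of 11 signalling partners, 7 had an Etv4 region, 6 an Etv5 region and 6 both. Ets1, an ETS factor that binds DNA together with RUNX1, had 11 and 8, and Wwtr1, the TAZ coactivator, had 10 and 7. Smad3, which carries the TGF-β signal, had 8 and 3, and Jun, an AP-1 subunit, had 6 and 4. Smad2 and Smad4, which also carry that signal, Smad1 and the TAZ relative Yap1 had 0 in both lists. Of 16 known RUNX targets, 13 had an Etv4 region, 9 an Etv5 region and 9 both. Spp1, which encodes osteopontin, and Cdkn1a, the p21 cell-cycle inhibitor, had 6 and 3 each, and Col1a1, a bone collagen gene, had 4 and 2. The median count was 1 Etv4 region for cofactors and for partners and 2 for targets, beside 1 over all protein-coding genes. The median Etv5 count was 1 in each group, beside 0 over all genes. Apart from Ets1 and Wwtr1, each of these genes had fewer Etv4 regions than Runx2, and all had fewer of them than Runx1. For Etv5, Ets1 with 8 and Wwtr1 with 7 had more regions than Runx1 with 6. These counts were not scaled to gene length.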

How the data were processed

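Both BED lists, 1 per library, were analysed. The authors mapped Ion Proton reads, trimmed to 36 bases, to mm10 (Bowtie in the submitters' processing notes, and bowtie2 in the methods for FAIRE-seq, which the ChIP-seq libraries followed) and called regions in each library with the one-sample analysis of CisGenome (window 300 bp, p threshold 0.1), without input. The deposited score was 1000 in every row and was not informative, and the region number, an integer from 1 to the length of the list, served only to order regions. Starts were taken as counted from 0 and printed as counted from 1.

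Regions were joined to GENCODE vM21 genes in Python 3.11.15 (scipy 1.17.1 for intervals, pandas 2.3.3 with numpy 2.4.6 for tables, Biopython 1.88, matplotlib 3.10.9, numba 0.67.0). Promoters of P1 and P2 type were told apart by the first codons of the encoded protein. Sequences came from GRCm38.p6 (RefSeq promoter windows: 250 bases before to 50 after a start). Overlap and pattern searches were tested on simulated data and found 700 of 700 planted overlaps and 400 of 400 planted patterns. The members and gene lists were chosen with earlier results of these data known. All member genes and regions are named, and of the pathway lists the genes with the most regions. With 1 library per antibody, no test was made, and values are counts and shares with exact intervals. Alternatives were other distances, gene models, overlap rules, patterns, windows and subsets of each list. FAIRE-seq and RNA-seq of the study were not used here.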

Additional observations from a re-analysis of the deposited data

How the results depend on the processing

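Of the values recomputed with other settings, 46 stayed within the interval of the reported share or within 1.5-fold of the reported count, as did 4 more from a setting chosen after seeing the data. Those 4 kept only regions whose nearest protein-coding start was that of a member, which left 30 Etv4 and 11 Etv5 regions. The intervals are wide and the settings reuse the same regions, so staying within them is a weak check. A further 6 moved. The Etv4 count was 20 with the longer 50% of each list and 17 with the first 50% by region number. The Etv5 count was 9 in both of these and 9 inside the genes only. These settings keep fewer regions by construction. With regions joined across 300 bp, also chosen after seeing the data, the 4 Etv4 regions at Runx1 P2 became 2. The Etv4 share with the ETS pattern was 0 with CCGGAAGT alone. The share of overlapping regions ranged from 20.6% to 47.1% for Etv4 and from 50.0% to 88.9% for Etv5. No paired analysis was possible because neither antibody had a 2nd library and no result came from a test. Depth is unknown, so a gene without a region cannot be told apart from one bound below the caller's threshold.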
